A study of Mus musculus with 8 samples.

Results

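The genes described here encode ephrins and their Eph receptors, semaphorins with their neuropilin and plexin receptors, Slits and Robo receptors, and netrins and Unc5 receptors. They were taken by name from the gene column of the array files, in 9 name families from Eph and Efn to Slit and Ntn, and the brightest probe stood for each gene. This gave 68 genes with 88 probes, of 31890 genes with 39429 probes on the array. For 61 of them some group had both its arrays well above background, and these 61 were tested, among 19538 tested genes in all. The other 7, Epha6, Epha10, Ntn4, Ntn5, Sema3e, Sema4f and Unc5d, stayed under that limit in every group.

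RNA came from mouse embryos at E10.5 that carried the Tg(Ly6a-GFP) transgene, in which Ly6a sequences drive green fluorescent protein (GFP). Mothers were F1 hybrids of C57BL/6 x 129S1/SVImJ, fathers carried the transgene, and the labels give the sex as male. The aorta-gonad-mesonephros region, the umbilical arteries and the vitelline arteries of 100 embryos were pooled. All 4 groups were sorted as CD31+ VEC+ ESAM+ cells. Hematopoietic cluster cells, which bud from the arterial wall, were also Kit+, and 30000 of them were GFP+ and 130000 GFP-. Endothelial cells were Kit-, and 70000 of them were GFP+ and 300000 GFP-. Each group gave a single RNA preparation, divided into 2 fractions that were amplified apart and hybridised to separate 1-colour arrays. The p-values therefore measure the technical spread between divisions of the same RNA, and none measures variation between pools of embryos or between sorts.

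Guidance molecules were named for steering growing axons, and the same families direct cells in vessels. Ephrins and Eph receptors signal at contacts between cells, and ephrin-B2 (Efnb2) and EphB4 (Ephb4) are classical marks of arterial and venous endothelium. Class 3 semaphorins are secreted and act through neuropilins and plexins, most other semaphorins are bound to the membrane and act on plexins, Slits bind Robo receptors, and netrins bind Unc5 receptors and Dcc. In embryonic endothelium Unc5b, neuropilin-1, plexin-D1 and Robo4 are known for restraining or guiding vessel sprouts.

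Levels are log2 signals relative to the 75th percentile of each array, so 0 is a signal equal to that percentile. A level belongs to its own probe and is compared between groups, never between genes. For 3 genes with 2 fitted probes, whose probes disagreed in part (Efnb2 and Plxnc1) or gave the same calls throughout (Nrp2), the first 30 bases of each probe are shown as the array files list them, in lower case with no part marked. Within each pair the brightest probe, which gives the values used here, comes first. On mouse build mm9 the brightest and the other probe of Efnb2 lie at chr8:8618177-8618236 and chr8:8620426-8620485, those of Nrp2 at chr1:62865129-62865188 and chr1:62843298-62843357, and those of Plxnc1 at chr10:94253879-94253938 and chr10:94257387-94257446. The Efnb2 and Plxnc1 genes are on the minus strand and Nrp2 is on the plus strand. The Nrp2 probes were designed to different transcripts of the gene, whereas each of the other pairs was designed to a single transcript.
Efnb2, brightest probe: gtcatcggttggctacgttttggttctatg
Efnb2, other probe: tggatctggacagttttgtagtctgtagct
Nrp2, brightest probe: tgagccagatcacgggaactcgagagcttt
Nrp2, other probe: ggtttctgttggctgtcattgtcatctcca
Plxnc1, brightest probe: ggatcccattagccaaatgcacagaatgtc
Plxnc1, other probe: atgccaaggatataccaacctacaaagagg

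The sort itself was visible in the arrays: the mean level of Ly6a was -0.53 in GFP+ and -3.91 in GFP- cluster cells, and 0.39 and -3.67 in endothelial cells. Kit stood at 2.87 and 1.98 in GFP+ and GFP- cluster cells and at 1.32 and 1.34 in the endothelial groups. Endothelial markers were well above background on every array of all 4 groups (14 of 14 genes), with a summed level (linear scale, relative to the 75th percentile) of 260 to 261 in GFP+ cluster, 327 to 332 in GFP- cluster, 323 to 345 in GFP+ endothelial and 363 to 375 in GFP- endothelial cells. These markers include Robo4, which is also a guidance gene. The share of spots well above background ran from 55.4% to 64.5% between arrays, and no spot was saturated. It was 55.4% and 59.7% in GFP+ cluster, 62.5% and 62.6% in GFP- cluster, 64.5% and 58.0% in GFP+ endothelial and 61.8% and 61.5% in GFP- endothelial cells. The lowest level well above background was -4.63 and -4.75 on the arrays of GFP+ cluster cells and -4.98 or lower on the others. Replicate 1 of every group lay on the same slide and replicate 2 on the other, and array position within the slide cannot be told apart from group. Marker genes of blood and of other cell types differed between the groups. The summed level of 13 blood genes (linear scale, relative to the 75th percentile) was 50.7 to 52.1 on the arrays of GFP+ cluster cells, 14.0 to 14.1 in GFP- cluster cells, 6.00 to 6.09 in GFP+ and 4.05 to 4.22 in GFP- endothelial cells. For 12 macrophage genes it was 30.2 to 30.4, at most 10.8, at most 11.5 and 4.86 to 5.01 in the same order, with Cd68, Lyz2 and Timd4 above background on neither array of GFP- endothelial cells. Summed over 12 erythroid genes it was 132 to 133, 923 to 939, 139 to 146 and 639 to 659, and over 14 genes of mesenchyme and smooth muscle 15.4 to 15.7, 24.8 to 24.9, 26.4 to 26.5 and 34.7 to 35.4. For 18 neural genes it was 3.58 to 3.71, 2.73 to 2.84, 6.84 to 7.04 and 3.89 to 3.91, with Neurog2, Sox2 and Pax6 above background on neither array in any group. The neural gene Stmn2 had a mean level of 2.33 in GFP+ and 0.63 in GFP- endothelial cells. Of the 15 tested neural genes, 3 were higher and 8 lower with GFP in endothelial cells (median -0.31), and 2 were higher and 8 lower in cluster cells (median -0.57). Of the 15 arterial genes, Efnb2, Nrp1 and Unc5b among them, 9 were higher and 3 lower with GFP in endothelial cells (median 0.39). In cluster cells 5 were higher and 6 lower (median -0.16). Of the 9 venous genes, Ephb4 and Nrp2 among them, 5 were higher and 3 lower with GFP in endothelial cells (median 0.35). In cluster cells 1 was higher and 6 were lower (median -0.37). The part of these cell types in the results on guidance genes was not tested, and fewer cells of a type and less RNA per cell cannot be told apart.

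In GFP+ cluster cells most guidance genes with a difference were low. Set against GFP- cluster cells, 29 of the 61 tested genes were lower, 10 were higher and 22 did not pass (limma, Benjamini-Hochberg adjusted p under 0.05 over all tested genes). Over all genes 20.9% were called lower and 11.8% higher, 32.7% in all. Set against GFP+ endothelial cells, GFP+ cluster cells had 35 guidance genes lower and 6 higher, where 24.2% of all genes were lower and 26.1% higher, 50.4% in all. The median log2 difference of the 61 genes was -0.28 in the first comparison, with -0.076 over all genes, and -0.41 in the second, with 0.033 over all genes. These comparisons share the GFP+ cluster arrays. Of the 14 endothelial marker genes, 9 were lower and 5 did not pass in the first comparison, with a median of -0.30, and 12 were lower and 1 higher in the second, with a median of -0.58. Robo4 belongs to both the endothelial markers and the guidance genes, so the 2 sets are not separate. The part of the endothelial markers in the guidance genes' differences was not tested. On both of those arrays 29 of 61 guidance genes (47.5%) stood below the other 6 arrays, as did 21.4% of all tested genes, and 5 genes, Efnb1, Ephb6, Sema3d, Sema4b and Sema4d, stood above them (13.5% of all genes).

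Between the endothelial groups the directions were balanced. In GFP+ endothelial cells 16 guidance genes were higher, 15 lower and 30 did not pass, while 18.1% of all genes were higher and 33.3% lower, 51.5% in all. With quantile normalization 19 were higher and 10 lower, and the authors' normalized values gave 19 higher and 9 lower. The median difference over all genes was -0.13 in the first scaling and -0.039 with quantile normalization. Both arrays of GFP+ endothelial cells stood above the other 6 for 15 guidance genes, with 14.7% of all genes doing so, and below them for 3, with 26.7% of all genes. GFP- endothelial cells were above for 16 (22% of all genes) and below for 7 (11.9%). GFP- cluster and GFP- endothelial cells differed least often: 8 genes were higher and 10 lower in cluster cells, with 11.9% and 12.4% of all genes, 24.3% in all. The split was 5 and 10 with quantile normalization. Leaving out any array of the GFP- groups brought these 18 calls to between 8 and 11: 8 or 9 without an array of GFP- cluster cells and 10 or 11 without an array of GFP- endothelial cells. GFP- cluster cells stood apart least often, above the other 6 arrays for Nrp2, Sema4g, Sema5a, Slit1 and Unc5c (5 genes, 7.81% of all genes) and below them for Epha1, Sema3f, Sema3g and Sema7a (4 genes, 3.65% of all genes).

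With the planned normexp background correction 0, 0, 2, 0 and 0 guidance genes were called by limma in the 4 pairwise comparisons and in the difference between the GFP differences, and 11, 15, 14, 4 and 9 had an unadjusted p under 0.05. On replicate 2 of GFP- endothelial cells 2 spots lay below their local background, the lowest at -32157. The background mean fitted on that array was -575 with them and 17.5 without them. Replicate 1 of GFP+ and of GFP- endothelial cells had 1 such spot each, at -2.37 and -9.73. Without such spots the counts were 33, 27, 37, 11 and 20, beside 39, 31, 41, 18 and 30 with the processed signal.

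**Figure D1:**
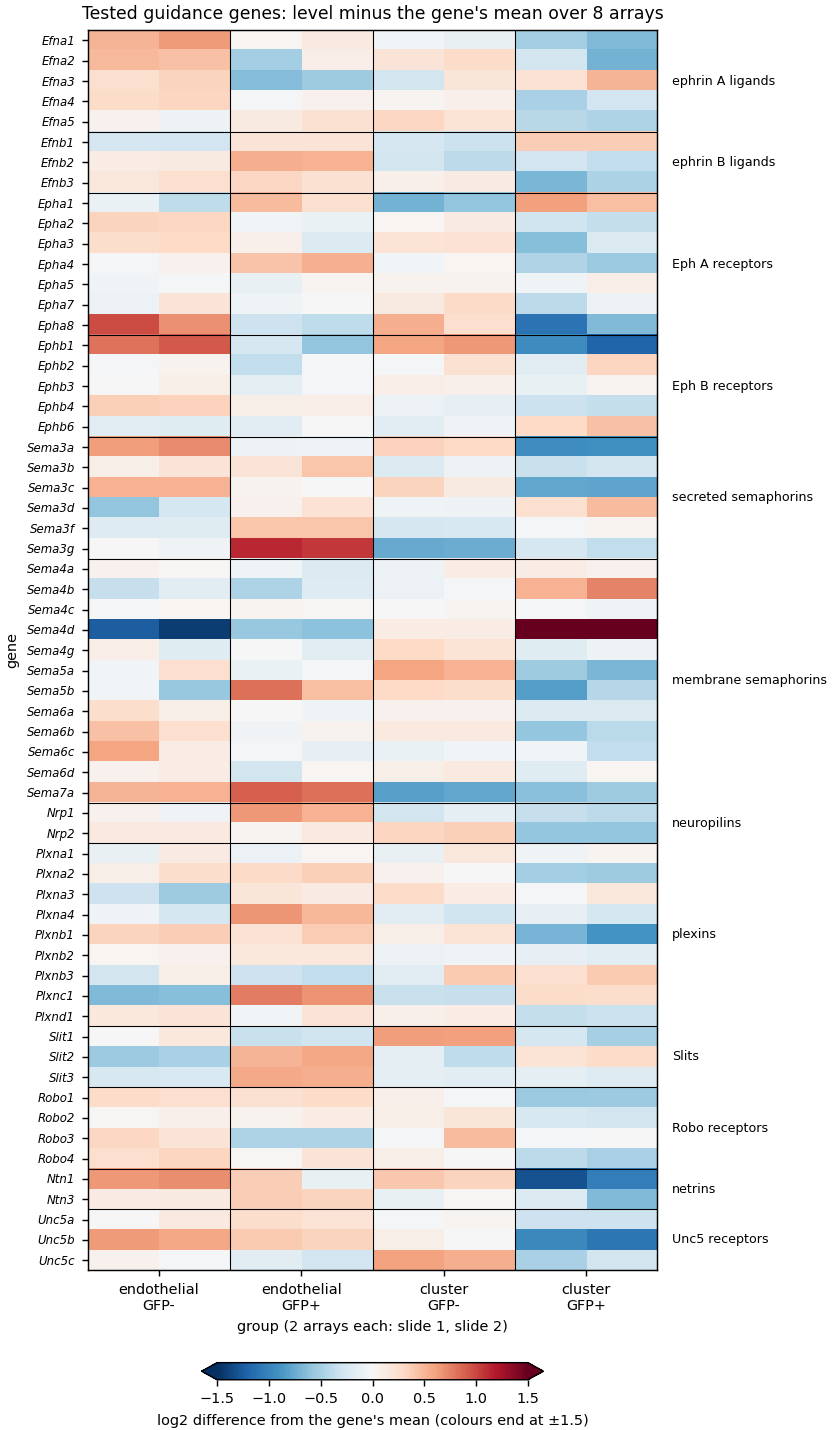
Level of each of the 61 tested guidance genes on each of the 8 arrays (columns, by group, slide 1 then slide 2) minus the gene's mean over the arrays, on a log2 scale whose colours end at ±1.5. Rows are grouped by family; blue rows dominate the GFP+ cluster columns, where 29 genes lay below all other arrays, and Sema4d is the deepest red there.

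**Figure D2:**
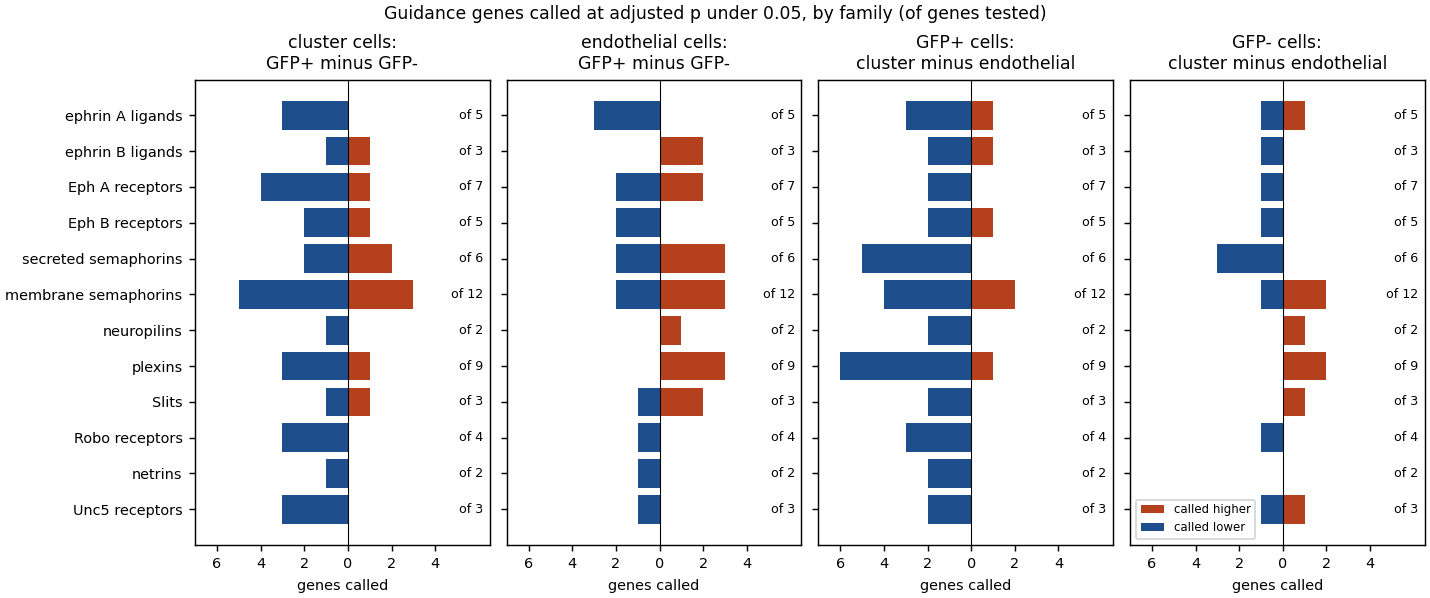
Number of genes called higher (right) and lower (left) at an adjusted p under 0.05 in each family and pairwise comparison, with the number tested at the right edge of each panel. Calls to the left outnumber those to the right where GFP+ cluster cells are compared, 29 against 10 and 35 against 6.

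Among the ephrin-B ligands, which span the membrane and can signal back into the cell that carries them, the 3 members had different patterns. Efnb2 (probe at chr8:8618177-8618236) read 1.94 and 1.87 in GFP+ and 1.96 and 1.85 in GFP- cluster cells, and 2.78 and 2.76 in GFP+ and 2.35 and 2.38 in GFP- endothelial cells. The cluster groups overlapped, while GFP+ endothelial cells stood above every other array. Efnb2 was higher in GFP+ than in GFP- endothelial cells by 0.41 ± 0.056 (log2 difference ± SE, 2 arrays against 2, adjusted p = 0.00278), and its difference in cluster cells was 0.0050 ± 0.056 (adjusted p = 0.959). It was lower in cluster than in endothelial cells among GFP+ cells (-0.86 ± 0.056, adjusted p = 0.000223) and among GFP- cells (-0.46 ± 0.056, adjusted p = 0.00545). The second Efnb2 probe, whose sequence is given above, was called in no comparison: it gave -0.11 and -0.26 for GFP in cluster and endothelial cells and 0.11 and -0.040 for cluster against endothelial cells. The mean of both probes left the endothelial GFP difference at 0.071 (adjusted p = 0.459).

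Efnb1 (probe at chrX:96343505-96343564), another ligand of EphB receptors, read 1.90 and 1.91 with GFP and 1.28 and 1.21 without it in cluster cells, and 1.73 and 1.73 with GFP and 1.28 and 1.25 without it in endothelial cells. Both GFP+ groups lay above both GFP- groups, and GFP+ cluster cells were the highest. The GFP difference was 0.66 ± 0.045 (adjusted p = 0.000308) in cluster cells and 0.46 ± 0.045 (adjusted p = 0.000951) in endothelial cells. Efnb3 was lowest in GFP+ cluster cells, with a mean of -1.04 against -0.36, -0.19 and -0.25 in GFP- cluster, GFP+ endothelial and GFP- endothelial cells. It fell with GFP in cluster cells (-0.68 ± 0.083, adjusted p = 0.00261) and had a difference of 0.054 ± 0.083 in endothelial cells, which did not pass.

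Of the EphB receptors, Ephb4 (probe at chr5:137815646-137815705), the partner of ephrin-B2 on venous endothelium, read 3.22 and 3.18 in GFP+ and 3.45 and 3.41 in GFP- cluster cells, and 3.63 and 3.63 in GFP+ and 3.90 and 3.88 in GFP- endothelial cells. All 4 groups were separate, in the order GFP- endothelial, GFP+ endothelial, GFP- cluster and GFP+ cluster cells from high to low. Cluster cells were lower than endothelial cells, with differences of -0.43 ± 0.041 (adjusted p = 0.000714) among GFP+ and -0.46 ± 0.041 (adjusted p = 0.00222) among GFP- cells. The GFP differences were smaller, -0.23 ± 0.041 (adjusted p = 0.00977) in cluster cells and -0.26 ± 0.041 (adjusted p = 0.00458) in endothelial cells. With quantile normalization they were -0.14 and -0.035 and did not pass. The other Ephb4 probe gave -0.68 and -0.25 between the classes, both called. For GFP it gave -0.44 in cluster cells, called, and -0.014 in endothelial cells, which did not pass (adjusted p = 0.875).

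Ephb1 (probe at chr9:101824549-101824608), a receptor tyrosine kinase for ephrin-B ligands, read -3.90 and -4.16 with GFP and -2.37 and -2.31 without it in cluster cells, and -3.21 and -3.55 with GFP and -2.14 and -2.04 without it in endothelial cells. Both GFP+ groups were below both GFP- groups, and they did not overlap. The gene fell, with differences of -1.69 ± 0.14 (adjusted p = 0.000563) in cluster cells and -1.29 ± 0.14 (adjusted p = 0.00126) in endothelial cells, the largest falls of a guidance gene measured on all arrays in these comparisons. Ephb6 (probe at chr6:41570442-41570501), a receptor without kinase activity, read -0.72 and -0.59 in GFP+ and -1.18 and -1.08 in GFP- cluster cells, and -1.18 and -1.04 in GFP+ and -1.20 and -1.21 in GFP- endothelial cells. GFP+ cluster cells were the highest, and the other groups overlapped. Ephb6 was higher there than in GFP- cluster cells (0.47 ± 0.076, adjusted p = 0.00671) and than in GFP+ endothelial cells (0.45 ± 0.076, adjusted p = 0.005). The mean of its probes ended both calls (0.40 and 0.10). Ephb2 and Ephb3 were called in no comparison, with pairwise differences between -0.21 and 0.28.

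The ephrin-A ligands are tied to the membrane by a lipid anchor and bind EphA receptors. Efna1 (probe at chr3:89075703-89075762) read 2.74 and 2.59 with GFP and 3.20 and 3.14 without it in cluster cells, and 3.28 and 3.39 with GFP and 3.76 and 3.88 without it in endothelial cells. Within each class GFP+ cells were the lower, each endothelial group was above the cluster group of the same GFP state, and no groups overlapped. Its GFP differences were -0.51 ± 0.080 (adjusted p = 0.0061) in cluster and -0.49 ± 0.080 (adjusted p = 0.00482) in endothelial cells, and the difference of cluster from endothelial cells was -0.67 ± 0.080 among GFP+ and -0.65 ± 0.080 among GFP- cells, both called. Efna4 fell with GFP too, with differences of -0.44 in cluster and -0.28 in endothelial cells, both called.

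Efna3 (probe at chr3:89118981-89119040) read -2.79 and -2.49 in GFP+ and -3.27 and -2.82 in GFP- cluster cells, and -3.66 and -3.53 in GFP+ and -2.76 and -2.67 in GFP- endothelial cells. GFP+ endothelial cells were the lowest group, and the cluster groups met at -2.79 and -2.82. The gene fell with GFP in endothelial cells (-0.88 ± 0.17, adjusted p = 0.00876), and its difference in cluster cells was 0.41 ± 0.17 (adjusted p = 0.125), which passed with the slide as a block (adjusted p = 0.0363). GFP+ cluster cells were higher than GFP+ endothelial cells by 0.96 ± 0.17 (adjusted p = 0.00632). Efna5 (probe at chr17:62954177-62954236) read -0.60 and -0.65 with GFP and 0.13 and 0.028 without it in cluster cells, and -0.045 and 0.046 with GFP and -0.12 and -0.26 without it in endothelial cells. GFP+ cluster cells stood apart below the rest, and the GFP difference was -0.70 ± 0.072 (adjusted p = 0.00129) in cluster cells and 0.19 ± 0.072 (adjusted p = 0.0717) in endothelial cells. Efna2 did not pass in any comparison, and its GFP differences were -0.72 ± 0.22 and -0.67 ± 0.22.

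Of the 7 tested EphA receptors, 1 rose and 4 fell in GFP+ cluster cells. Epha1 (probe at chr6:42308583-42308642) was the one that rose, and it read -3.34 and -3.51 in GFP+ and -4.67 and -4.56 in GFP- cluster cells, and -3.50 and -3.72 in GFP+ and -4.06 and -4.35 in GFP- endothelial cells. Within each class both GFP+ arrays lay above both GFP- arrays, by 1.19 ± 0.13 (adjusted p = 0.00165) in cluster cells and 0.60 ± 0.13 (adjusted p = 0.0127) in endothelial cells. The endothelial call was lost without replicate 1 of GFP+ or replicate 2 of GFP- endothelial cells. Epha4 (probe at chr1:77364339-77364398) read -3.33 and -3.43 with GFP and -2.92 and -2.84 without it in cluster cells, and -2.45 and -2.34 with GFP and -2.89 and -2.81 without it in endothelial cells. GFP+ endothelial cells were the highest and GFP+ cluster cells the lowest, and Epha4 fell with GFP in cluster cells (-0.50 ± 0.067, adjusted p = 0.00373) and rose in endothelial cells (0.45 ± 0.067, adjusted p = 0.00354). Among GFP+ cells the class difference of Epha4 was -0.98 ± 0.067 (adjusted p = 0.00026).

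Epha2, whose kinase is widely expressed in epithelia and vessels, fell with GFP in both classes, with differences of -0.40 ± 0.053 (adjusted p = 0.00346) in cluster and -0.40 ± 0.053 (adjusted p = 0.0024) in endothelial cells. Epha3 was above background on 1 of 2 arrays of GFP+ cluster cells, where its fitted GFP difference was -0.63 ± 0.16 (adjusted p = 0.0292). Epha8, counted among the 4 that fell, was above background on neither array of GFP+ cluster cells, on 1 of 2 arrays of GFP- cluster and of GFP+ endothelial cells, and on both arrays of GFP- endothelial cells. Epha8 was tested only because it passed the filter through GFP- endothelial cells, the group where it was highest. Its calls as lower with GFP in both classes enter the counts but are not taken as support, and no size is given. Epha5 and, by its brightest probe, Epha7 were called in no comparison, although the cluster GFP difference of Epha7, -0.45 ± 0.14, passed with the slide as a block (adjusted p = 0.0126). The second fitted Epha7 probe was called for GFP in endothelial cells (0.48, adjusted p = 0.013), where the brightest gave -0.080, and between the GFP- classes (0.56, adjusted p = 0.0176). It was called for the difference between the GFP differences as well (-0.74, adjusted p = 0.0176).

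Secreted semaphorins split by gene. Sema3g (probe at chr14:32043435-32043494), a class 3 semaphorin that binds neuropilins and is known from arterial endothelium, read 1.76 and 1.64 in GFP+ and 1.25 and 1.27 in GFP- cluster cells, and 3.14 and 3.07 in GFP+ and 2.00 and 1.95 in GFP- endothelial cells. The 4 groups were separate, with GFP+ endothelial cells the highest and GFP- cluster cells the lowest. The rise with GFP was 1.13 ± 0.059 (adjusted p = 0.000195) in endothelial cells and 0.44 ± 0.059 (adjusted p = 0.00352) in cluster cells, and among GFP+ cells the difference of cluster from endothelial cells was -1.40 ± 0.059 (adjusted p = 6.57e-05). Its second probe gave -1.56 and -0.93 between the classes, both called, but -0.33 and 0.29 for GFP, neither called. The mean of the probes brought the cluster GFP difference to 0.053 (adjusted p = 0.813).

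Sema3a (probe at chr5:13602462-13602521), the best known repellent of the class, read -4.36 and -4.36 with GFP and -3.09 and -3.13 without it in cluster cells, and -3.51 and -3.49 with GFP and -2.81 and -2.73 without it in endothelial cells. Levels were ordered from GFP- endothelial through GFP- cluster and GFP+ endothelial to GFP+ cluster cells, with no overlap. The GFP difference was -1.25 ± 0.048 (adjusted p = 5.57e-05) in cluster and -0.73 ± 0.048 (adjusted p = 0.000344) in endothelial cells. Sema3c (probe at chr5:17235981-17236040), which is needed for cardiac outflow development, read -4.17 and -4.18 in GFP+ and -3.06 and -3.25 in GFP- cluster cells, and -3.34 and -3.39 in GFP+ and -2.88 and -2.87 in GFP- endothelial cells. The order of the means was the same as for Sema3a, and GFP+ cluster cells lay apart from the rest. Its GFP differences were -1.02 ± 0.071 (adjusted p = 0.000329) in cluster and -0.49 ± 0.071 (adjusted p = 0.0031) in endothelial cells. For both genes the other probe was too dim to be fitted, and the mean of the probes gave 0.060 for Sema3a and -0.20 for Sema3c between the GFP+ classes, where their brightest probes gave -0.86 and -0.81.

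Sema3f, a ligand of neuropilin-2, rose with GFP in both classes, by 0.26 ± 0.042 (adjusted p = 0.00674) in cluster and 0.61 ± 0.042 (adjusted p = 0.000393) in endothelial cells. Sema3b was called in the comparison of the GFP+ classes, where it was lower in cluster cells (-0.61 ± 0.094, adjusted p = 0.00378). Sema3d rose with GFP in endothelial cells (0.57 ± 0.13, adjusted p = 0.0153), where it was above background on 1 of 2 arrays of GFP- cells. In cluster cells its difference of 0.42 ± 0.13 passed with the slide as a block (adjusted p = 0.0235), and 1 of 2 arrays of GFP+ cells was above background.

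The largest difference of any tested guidance gene was in Sema4d (probe at chr13:51796617-51796676), which encodes the membrane semaphorin CD100 of blood cells, a ligand of plexin-B1. It read 0.14 and 0.17 with GFP and -1.54 and -1.55 without it in cluster cells, and -2.22 and -2.26 with GFP and -2.89 and -3.08 without it in endothelial cells. All 4 groups were separate, cluster cells lay above endothelial cells, and in each class GFP+ cells lay above GFP- cells. Cluster cells exceeded endothelial cells by 2.40 ± 0.069 (adjusted p = 1.92e-05) among GFP+ and 1.44 ± 0.069 (adjusted p = 0.000278) among GFP- cells. The rise with GFP was 1.70 ± 0.069 (adjusted p = 6.58e-05) in cluster cells and 0.74 ± 0.069 (adjusted p = 0.000831) in endothelial cells. The summed blood genes had the same order of groups, with 13 of 13 higher in GFP+ than in GFP- cluster cells and 8 of 13 higher in GFP+ than in GFP- endothelial cells; their part in the Sema4d levels was not tested.

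Sema4b (probe at chr7:87371351-87371410), of the same class, read -1.99 and -1.77 in GFP+ and -2.60 and -2.54 in GFP- cluster cells, and -2.98 and -2.71 in GFP+ and -2.86 and -2.67 in GFP- endothelial cells. GFP+ cluster cells were the highest, and the endothelial groups overlapped. It rose with GFP in cluster cells (0.69 ± 0.12, adjusted p = 0.00996), had a difference of -0.078 ± 0.12 in endothelial cells, and was higher in GFP+ cluster than in GFP+ endothelial cells (0.97 ± 0.12, adjusted p = 0.002). Without replicate 1 of GFP- cluster cells the rise in cluster cells was 0.66 (adjusted p = 0.0575). Sema4a and Sema4c were called in no comparison. Sema4g fell in GFP+ cluster cells (-0.38 ± 0.11, adjusted p = 0.0486), a call that was lost with quantile normalization and without any array of either cluster group.

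Sema7a (probe at chr9:57810607-57810666), a lipid-anchored semaphorin that binds plexin-C1 and integrins, read -0.52 and -0.43 with GFP and -0.70 and -0.68 without it in cluster cells, and 1.01 and 0.94 with GFP and 0.61 and 0.63 without it in endothelial cells. Both cluster groups lay below both endothelial groups. The difference of cluster from endothelial cells was -1.45 ± 0.052 (adjusted p = 3.91e-05) among GFP+ cells and -1.31 ± 0.052 (adjusted p = 0.000145) among GFP- cells. Within each class GFP+ cells were above GFP- cells by smaller amounts, 0.21 ± 0.052 (adjusted p = 0.0274) in cluster cells and 0.35 ± 0.052 (adjusted p = 0.00348) in endothelial cells. The cluster value did not pass without either array of GFP- cluster or GFP- endothelial cells or without replicate 2 of GFP+ cluster cells.

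Sema5a (probe at chr15:32626025-32626084), which carries thrombospondin repeats beside its semaphorin domain, read -3.03 and -3.18 in GFP+ and -1.90 and -1.98 in GFP- cluster cells, and -2.60 and -2.52 in GFP+ and -2.54 and -2.24 in GFP- endothelial cells. GFP- cluster cells were the highest and GFP+ cluster cells the lowest, and the endothelial groups overlapped. Sema5a fell with GFP in cluster cells (-1.16 ± 0.11, adjusted p = 0.000963) and had a difference of -0.17 ± 0.11 (adjusted p = 0.244) in endothelial cells. Neither array of GFP+ cluster cells had Sema5b well above background. The gene was at least 1.44-fold lower there than in GFP- cluster cells (adjusted p = 0.0311) and at least 1.86-fold lower than in GFP+ endothelial cells (adjusted p = 0.00665), with measured means of -5.06, -4.16 and -3.80 in that order. A bound of this kind sets the dim group at the lowest signal well above background on its array, or at its own value where that is higher.

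Of the class 6 semaphorins, transmembrane ligands of A plexins, Sema6a and Sema6b fell with GFP in both classes. Their differences were -0.28 and -0.64 in cluster cells and -0.21 and -0.34 in endothelial cells. Sema6c and Sema6d were called in no comparison.

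The neuropilins, co-receptors for class 3 semaphorins and for vascular endothelial growth factor, were both lowest in GFP+ cluster cells. Nrp1 (probe at chr8:131026650-131026709), the arterial neuropilin, read 0.22 and 0.17 with GFP and 0.29 and 0.42 without it in cluster cells, and 1.22 and 1.09 with GFP and 0.63 and 0.51 without it in endothelial cells. GFP+ endothelial cells stood above the rest. The rise with GFP in endothelial cells was 0.58 ± 0.076 (adjusted p = 0.00229), the difference in cluster cells was -0.16 ± 0.076 (adjusted p = 0.175), and between GFP+ cluster and GFP+ endothelial cells it was -0.95 ± 0.076 (adjusted p = 0.000405). Nrp2, known from veins and lymphatics, had means of 4.38 in GFP+ cluster, 5.30 in GFP- cluster, 5.05 in GFP+ endothelial and 5.10 in GFP- endothelial cells. It fell with GFP in cluster cells (-0.92 ± 0.050, adjusted p = 0.000145). The other Nrp2 probe, placed on another transcript, gave -0.95 for that difference and -0.48 between the GFP+ classes, both called. In endothelial cells Nrp2 had a GFP difference of -0.053 ± 0.050 (adjusted p = 0.398), but 0.28 (adjusted p = 0.00515) with quantile normalization, so its direction there depends on the scaling.

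Plexins are the signalling receptors for semaphorins. Plxnc1 (probe at chr10:94253879-94253938), the receptor for Sema7a, read 0.30 and 0.30 in GFP+ and -0.30 and -0.32 in GFP- cluster cells, and 0.79 and 0.70 in GFP+ and -0.63 and -0.61 in GFP- endothelial cells. All 4 groups were separate, and in each class GFP+ cells were the higher. The rise was 1.37 ± 0.048 (adjusted p = 7.25e-05) in endothelial cells, the largest rise of a guidance gene in that comparison, and 0.61 ± 0.048 (adjusted p = 0.000507) in cluster cells. Its second probe gave 1.21 and 0.95, both called. Between the GFP+ classes the probes opposed each other: the brightest gave -0.45 and the other 0.33 (adjusted p = 0.0011 and adjusted p = 0.0477, over all fitted probes), so no direction is given for that comparison.

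Plxnb1 (probe at chr9:109021856-109021915), the receptor for Sema4d, read -3.45 and -3.65 with GFP and -2.66 and -2.55 without it in cluster cells, and -2.53 and -2.37 with GFP and -2.41 and -2.38 without it in endothelial cells. GFP+ cluster cells lay below all other arrays, while the endothelial groups overlapped. It fell with GFP in cluster cells (-0.94 ± 0.093, adjusted p = 0.0011), was -0.054 ± 0.093 in endothelial cells, and was lower in GFP+ cluster than in GFP+ endothelial cells (-1.10 ± 0.093, adjusted p = 0.000482). Among GFP+ cells the ligand gene Sema4d and the receptor gene Plxnb1 thus differed between the classes in opposite directions, by 2.40 and -1.10.

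Plxna4 (probe at chr6:32094602-32094661) read -1.14 and -1.28 in GFP+ and -1.18 and -1.31 in GFP- cluster cells, and -0.35 and -0.52 in GFP+ and -1.06 and -1.28 in GFP- endothelial cells. GFP+ endothelial cells stood above the rest, with a GFP difference of 0.74 ± 0.11 (adjusted p = 0.00323) in endothelial and 0.032 ± 0.11 (adjusted p = 0.856) in cluster cells. The mean with its dim second probe ended the endothelial call (0.51, adjusted p = 0.152). Plxna3 (probe at chrX:71589923-71589982) read -2.48 and -2.29 with GFP and -2.18 and -2.33 without it in cluster cells, and -2.27 and -2.32 with GFP and -2.76 and -2.98 without it in endothelial cells. GFP- endothelial cells were the lowest, and the other groups overlapped. The gene was higher by 0.57 ± 0.11 (adjusted p = 0.00743) in GFP+ endothelial cells, and higher in GFP- cluster than in GFP- endothelial cells by 0.61 ± 0.11 (adjusted p = 0.0142). Plxna2 fell in GFP+ cluster cells (-0.55 ± 0.072, adjusted p = 0.00312). Plxnd1, the endothelial receptor of the family, fell there too (-0.43 ± 0.082, adjusted p = 0.0115), and its endothelial GFP difference of -0.096, not called, turned to 0.28 (adjusted p = 0.0076) with quantile normalization. The other Plxnd1 probe gave -0.70 for the cluster GFP difference, also called. That probe was called between the GFP- classes (-0.27) and for the difference between the GFP differences (-0.56). There the brightest gave -0.080 and -0.34, neither called. Plxnb2 was called between the GFP+ classes (-0.30 ± 0.044) and so was Plxnb3 (0.66 ± 0.21; 0.18 with quantile normalization, not called), which was above background on 1 of 2 arrays in each of these groups, while Plxna1 was called in no comparison.

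**Figure D3:**
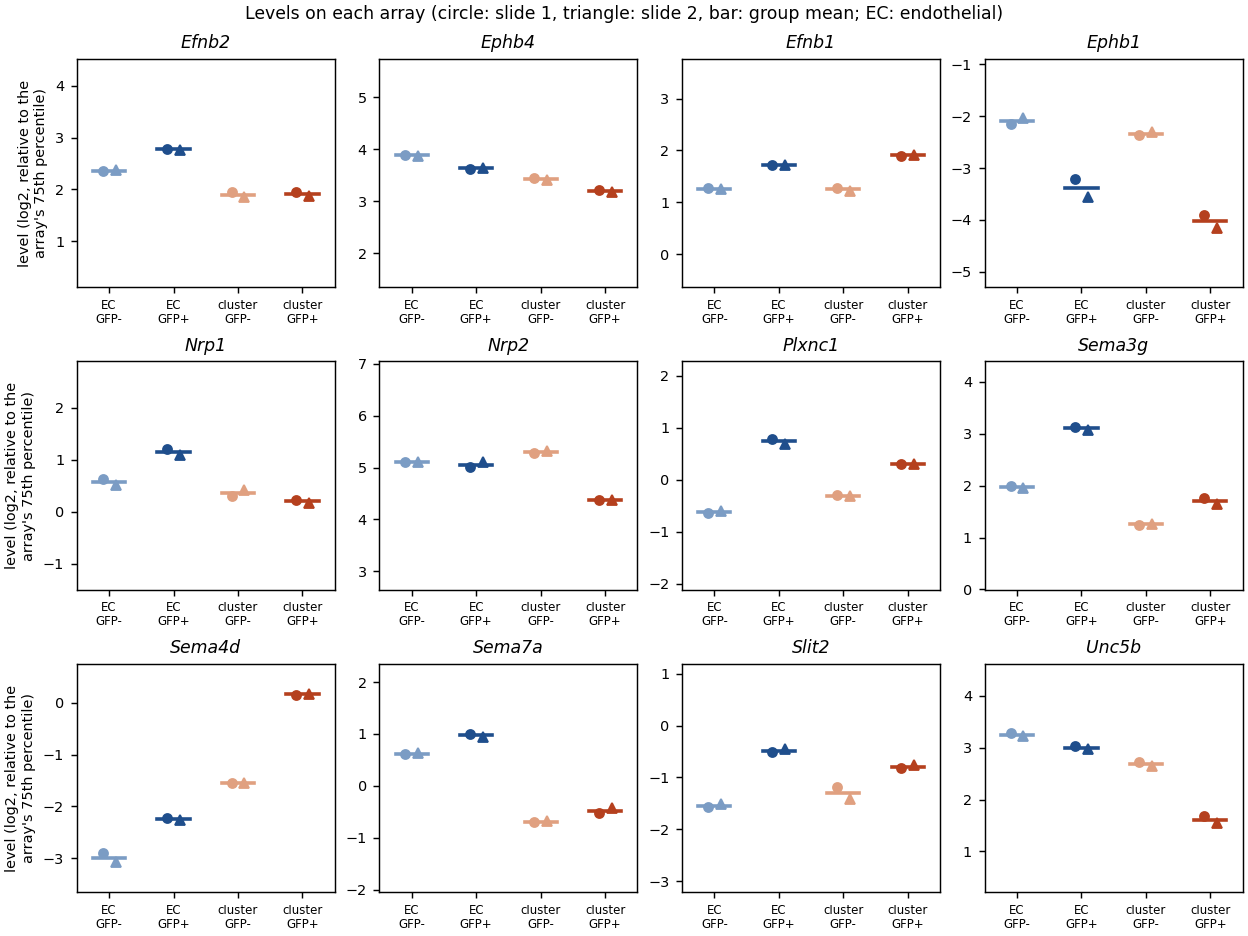
Level of 12 guidance genes on each array (log2, relative to the array's 75th percentile), with circles for slide 1, triangles for slide 2 and a bar for the group mean; every panel spans the same number of log2 units. Sema4d runs from -2.99 in GFP- endothelial to 0.16 in GFP+ cluster cells, Unc5b runs the other way from 3.25 to 1.61, and Efnb2, Nrp1, Sema3g, Sema7a and Slit2 are highest in GFP+ endothelial cells.

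Slits are secreted ligands, and Slit2 and Slit3 were high in GFP+ endothelial cells. Slit2 (probe at chr5:48696673-48696732) read -0.82 and -0.75 in GFP+ and -1.18 and -1.41 in GFP- cluster cells, and -0.52 and -0.44 in GFP+ and -1.58 and -1.51 in GFP- endothelial cells. In each class GFP+ cells were above GFP- cells, by 1.06 ± 0.088 (adjusted p = 0.000606) in endothelial cells and 0.51 ± 0.088 (adjusted p = 0.00884) in cluster cells. Slit3 (probe at chr11:35521559-35521618) read -2.16 and -2.21 with GFP and -2.16 and -2.17 without it in cluster cells, and -1.44 and -1.47 with GFP and -2.25 and -2.24 without it in endothelial cells. GFP+ endothelial cells stood apart from 3 groups with similar levels, with a GFP difference of 0.79 ± 0.043 (adjusted p = 0.000205) in endothelial and -0.019 ± 0.043 in cluster cells. Slit1 (probe at chr19:41674749-41674808) read -3.36 and -3.60 in GFP+ and -2.47 and -2.49 in GFP- cluster cells, and -3.44 and -3.40 in GFP+ and -3.10 and -2.94 in GFP- endothelial cells. GFP- cluster cells were the highest, and the GFP+ groups overlapped. Slit1 fell with GFP in cluster cells (-1.0 ± 0.095, adjusted p = 0.000983) and in endothelial cells (-0.40 ± 0.095, adjusted p = 0.017). The endothelial call was lost with quantile normalization and without any endothelial array but replicate 1 of GFP- cells.

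The Robo receptors were lower in GFP+ cluster cells in 3 of 4 cases. Robo1, a main receptor for Slits, had means of 0.62 in GFP+ cluster, 1.19 in GFP- cluster, 1.42 in GFP+ endothelial and 1.43 in GFP- endothelial cells, and its GFP difference was -0.57 ± 0.049 (adjusted p = 0.000672) in cluster and -0.0067 ± 0.049 in endothelial cells. Robo4, the endothelial member, fell in GFP+ cluster cells (-0.49 ± 0.078, adjusted p = 0.00682), and so did Robo2 by its brightest probe (-0.39 ± 0.054, adjusted p = 0.00376). The other Robo2 probe gave -0.22 for that difference (adjusted p = 0.487). Between the GFP+ classes it gave 0.14, where the brightest gave -0.34, and it was called in no comparison. No Robo gene rose with GFP in either class, while the ligand Slit2 rose in both. Robo3 was well above background on neither array of GFP+ cluster cells and on 1 of 2 arrays of GFP+ endothelial cells. Its cluster GFP difference did not pass (adjusted p = 0.299), and the cluster arrays overlapped.

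Netrin-1 (Ntn1, probe at chr11:68022986-68023045), a secreted ligand of Unc5 receptors and Dcc, read -5.42 and -5.15 with GFP and -3.71 and -3.78 without it in cluster cells, and -3.74 and -4.22 with GFP and -3.46 and -3.42 without it in endothelial cells. Both arrays of GFP+ cluster cells lay below the rest, neither was well above background, and Ntn1 was at least 1.93-fold lower there than in GFP- cluster cells (adjusted p = 0.00163) and at least 1.64-fold lower than in GFP+ endothelial cells (adjusted p = 0.002). The endothelial GFP difference was -0.54 ± 0.17 (adjusted p = 0.0399), and with the slide as a block it did not pass (adjusted p = 0.0535). It did not pass with quantile normalization either. Ntn3 was lower in GFP+ cluster than in GFP+ endothelial cells (-0.78 ± 0.15, adjusted p = 0.0074).

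All 3 tested Unc5 genes fell in GFP+ cluster cells. Unc5b (probe at chr10:60225398-60225457), the Unc5 receptor of endothelium, read 1.68 and 1.55 in GFP+ and 2.72 and 2.64 in GFP- cluster cells, and 3.03 and 2.97 in GFP+ and 3.28 and 3.22 in GFP- endothelial cells. The 4 groups were separate, and GFP+ cluster cells lay far below the rest. The GFP difference was -1.07 ± 0.063 (adjusted p = 0.000189) in cluster cells and -0.25 ± 0.063 (adjusted p = 0.0211) in endothelial cells, and the latter was -0.11 with quantile normalization and did not pass, nor did it without any of the endothelial arrays. The difference of cluster from endothelial cells was -1.39 ± 0.063 (adjusted p = 7.94e-05) among GFP+ and -0.57 ± 0.063 (adjusted p = 0.00412) among GFP- cells. Unc5c (probe at chr3:141497142-141497201) read -3.51 and -3.30 with GFP and -2.43 and -2.49 without it in cluster cells, and -3.20 and -3.31 with GFP and -2.96 and -3.05 without it in endothelial cells. GFP- cluster cells were the highest and the GFP+ groups overlapped, with a GFP difference of -0.95 ± 0.086 (adjusted p = 0.000846) in cluster and -0.25 ± 0.086 (adjusted p = 0.0565) in endothelial cells. Its other probe gave -0.92 and -0.57, both called. Unc5a fell with GFP in cluster cells (-0.32 ± 0.066, adjusted p = 0.0155).

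The sequence upstream of 2 genes whose GFP differences in cluster cells had opposite signs, Plxnc1 (0.61) and Unc5b (-1.07), was read for short core motifs of endothelial and blood transcription factors. ETS factors were searched as CCGGAA, SOX factors as ACAAT, RBPJ as TGGGAA, factors of the GATA family as AGATAA and RUNX factors as TGTGGT, on both strands. The windows are the 250 bases before the transcript start in RefSeq on GRCm38.p6, chr10:94944846-94945095 and chr10:60831582-60831831, both on the minus strand and written 5′ to 3′ with matches in capitals.
Plxnc1: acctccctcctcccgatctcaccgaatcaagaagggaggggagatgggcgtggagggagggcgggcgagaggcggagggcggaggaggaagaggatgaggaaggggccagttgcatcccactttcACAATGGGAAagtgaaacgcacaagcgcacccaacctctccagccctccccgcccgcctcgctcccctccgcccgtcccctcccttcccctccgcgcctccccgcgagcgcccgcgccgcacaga
Unc5b: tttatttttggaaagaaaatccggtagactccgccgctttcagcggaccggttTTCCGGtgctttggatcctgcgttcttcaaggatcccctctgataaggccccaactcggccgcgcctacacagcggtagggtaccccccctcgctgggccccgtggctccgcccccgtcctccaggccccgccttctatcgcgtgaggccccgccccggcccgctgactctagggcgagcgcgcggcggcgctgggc
The Plxnc1 window held 1 match of the SOX motif and 1 of the RBPJ motif, which share 1 base, and the Unc5b window held the ETS motif on the other strand. The windows of Efnb2 and Sema3g held none of the 5 motifs. Over 32536 windows of the same length, 12.1% held the ETS, 27.4% the SOX, 21.6% the RBPJ, 9.97% the GATA and 14.0% the RUNX motif on either strand. In 75 windows of the 59 guidance genes that matched, the shares in the same order were 9.33%, 17.3%, 17.3%, 4% and 12%. A match is a string of letters and was not tested as a binding site.

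The GFP differences of the classes share no array and can be set side by side. Of the 61 genes, 8 rose with GFP in both classes: Efnb1, Epha1, Plxnc1, Sema3f, Sema3g, Sema4d, Sema7a and Slit2 (13.1%, with 6.47% of all tested genes called so). For Sema3g the second probe was called in neither class (-0.33 in cluster and 0.29 in endothelial cells), and the calls of Epha1 and Sema7a carry the limits given above. A further 13 fell in both (21.3%, with 11% of all tested genes), Efna1, Efna4, Epha2, Epha8, Ephb1, Ephb4, Ntn1, Sema3a, Sema3c, Sema6a, Sema6b, Slit1 and Unc5b. Of these, Epha8 and Ntn1 were above background on neither array of GFP+ cluster cells, and Epha8 passed the filter only through GFP- endothelial cells. With quantile normalization the endothelial falls of Ephb4, Ntn1, Slit1 and Unc5b did not pass. The other Ephb4 probe gave -0.014 in endothelial cells, which was not called. Epha4 and Sema5b fell in cluster and rose in endothelial cells (3.28%, with 2.3% of all genes). By the calls 14 fell in cluster cells alone (23%, with 7.62% of all genes) and 6 rose in endothelial cells alone (9.84%, with 9.37%). Of the 14, Nrp2 and Plxnd1 became called rises in endothelial cells with quantile normalization and with the authors' values. Ephb6 and Sema4b rose in cluster cells alone (3.28%, with 3.9%), Efna3 and Robo3 fell in endothelial cells alone (3.28%, with 20.9%), and 14 were called in neither class (23%, with 37%). Across the 61 genes, which are not independent replicates, the differences had a Pearson correlation of 0.593 and a Spearman correlation of 0.559, and over all tested genes 0.413 and 0.306.

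The difference between the GFP differences, cluster minus endothelial, was itself tested. It was negative in 26 guidance genes, positive in 4 and did not pass in 31, with 15.5% of all genes negative and 15.7% positive, 31.1% in all, and a median of -0.34 where all genes had 0.049. A negative value is a smaller rise or a larger fall with GFP in cluster cells than in endothelial cells. Among genes measured on all arrays the largest were in Sema5a (-0.995 ± 0.16, adjusted p = 0.00859), Epha4 (-0.95 ± 0.095, adjusted p = 0.00299), Efna5 (-0.89 ± 0.10, adjusted p = 0.00402) and Plxnb1 (-0.89 ± 0.13, adjusted p = 0.00743). The positive ones were Efna3 (1.29 ± 0.24, adjusted p = 0.0144), Sema4d (0.96 ± 0.097, adjusted p = 0.00304), Sema4b (0.77 ± 0.18, adjusted p = 0.0248) and Ephb6 (0.38 ± 0.11, adjusted p = 0.0462). All 3 Slits, both neuropilins and all 3 tested Unc5 genes were among the negative ones. For Efnb2 the value was -0.40 ± 0.080 (adjusted p = 0.0166) and for Unc5b -0.82 ± 0.089 (adjusted p = 0.00353), whereas Ephb4 had 0.026 ± 0.058 (adjusted p = 0.753). The second probes gave other values, 0.15 for Efnb2 (adjusted p = 0.653), -0.42 for Ephb4 (adjusted p = 0.025) and -0.39 for Ephb6 (adjusted p = 0.495). That of Unc5c gave -0.35 and was not called (adjusted p = 0.208). The calls of Efna3, Sema4b, Ephb6 and Efnb2 were each lost without at least 1 of the arrays, Efna3 without replicate 2 of GFP- endothelial cells and Ephb6 without any array but replicate 2 of GFP+ endothelial cells. With no filter on dim probes, which tested 31890 genes, 18 of the 30 were called.

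**Figure D4:**
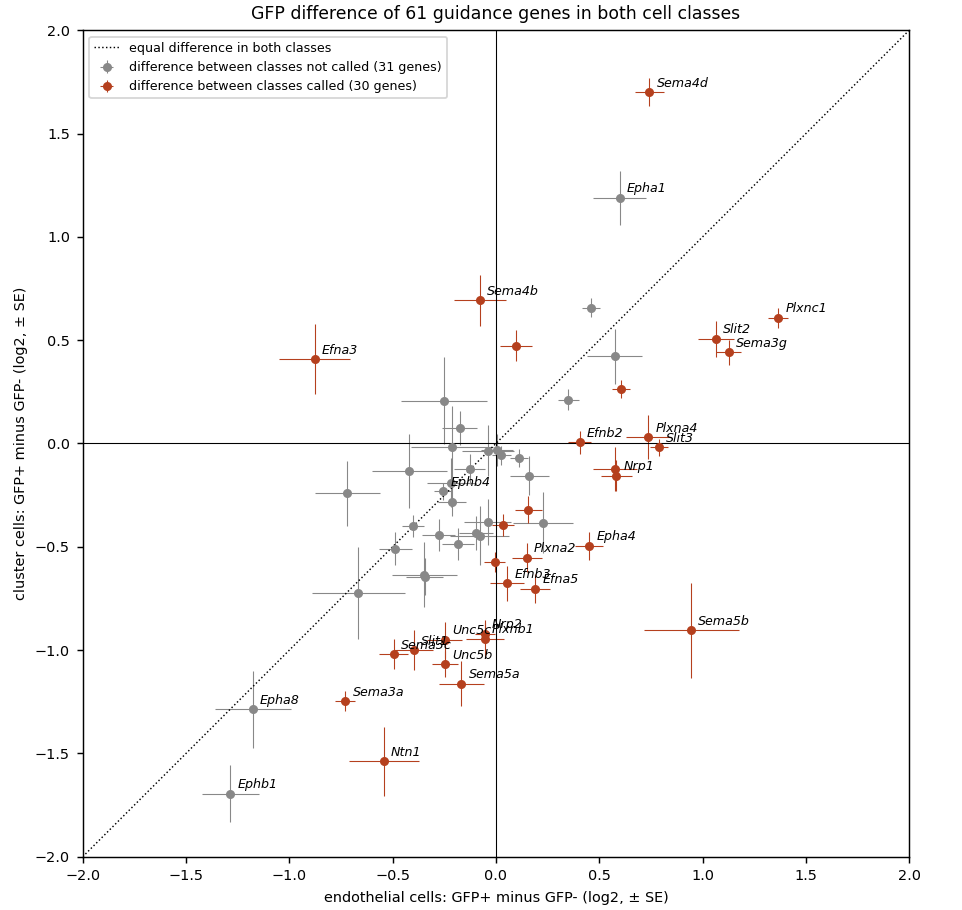
Log2 GFP difference (GFP+ minus GFP-) of 61 guidance genes in endothelial cells (horizontal) and cluster cells (vertical), with SE bars; red points are the 30 genes whose differences differed between the classes. Most red points lie below the dotted line of equal differences, 26 of 30, and Sema4d, Sema4b, Efna3 and Ephb6 lie above it.

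Genes that work with the guidance receptors, such as Dcc, collapsin response mediators and adaptor kinases, were read from a separate list of which 57 of 62 genes on the array were tested. In GFP+ against GFP- cluster cells 5 were higher and 30 lower, with 11.8% and 20.9% of all genes. The GTPase-activating protein gene of the Slit-Robo pathway Srgap3 (1.40), the kinase gene Pak1 (0.86) and Plxdc2 (0.57) were the largest rises among genes above background on all arrays. The collapsin response mediator family genes Dpysl4 (-1.16) and Crmp1 (-0.73), the plexin-associated Farp2 (-0.68) and Rnd3 (-0.63) were the largest falls. In endothelial cells 15 rose with GFP and 18 fell, with 18.1% and 33.3% of all genes. The largest rises among genes above background on all arrays were in Vav3 (0.67), Rgmb (0.59), a ligand of neogenin, and the endothelial phosphatase gene Ptprb (0.55). The largest falls were in the adhesion gene L1cam (-1.58), Ntng2 (-1.29), Rnd3 (-0.73) and Dpysl4 (-0.64). L1cam and Ntng2 were above background on 1 of 2 arrays of GFP+ endothelial cells, so their sizes are less certain. Mical2, which encodes an actin-oxidising enzyme downstream of plexins, was tested only because it passed the filter through GFP+ endothelial cells. It was above background on 1 of 2 arrays of GFP+ cluster cells and on no array of GFP- cells. Its calls as higher with GFP in both classes enter the counts but are not taken as support, and no size is given. Between the GFP+ classes 8 were higher and 33 lower in cluster cells (26.1% and 24.2% of all genes), and between the GFP- classes 6 and 9 (11.9% and 12.4%). The median of the list was -0.28 for GFP in cluster cells and -0.060 in endothelial cells, where all genes had -0.076 and -0.13.

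Of the 68 genes, 19 had several probes, and 11 had a second probe that could be fitted. Among 55 comparisons of such pairs both probes were called in 16, and they opposed each other in 1 of these, Plxnc1 between the GFP+ classes. The 7 genes that were not tested were mostly dark: Epha6, Epha10, Ntn5, Sema3e and Sema4f were above background on no array, Ntn4 on 1 array of GFP+ endothelial cells, and Unc5d on 1 array each of GFP- cluster and GFP+ endothelial cells. Sema3e, the ligand that binds plexin-D1 directly, was therefore not detectable at this signal. Plxnd1 was well above background on every array, and the levels of these genes are not compared with each other.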

How the data were processed

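Each of the 4 groups was measured on 2 Agilent 1-colour arrays. The deposited scanner files hold spot intensity values from Agilent Feature Extraction 10.10.1.1, per the file headers; the processed signal, corrected for background by that program, was used. The deposited table of the series holds linear intensity values that the authors had normalized by a method not given in the sources used here; each column had a median of 198 and a maximum of 378927. On the log2 scale it served as an alternative. Outlier spots were left out, spots of a probe averaged, and the 75th percentile of non-control spots subtracted on the log2 scale. The probe with the highest mean over the 8 arrays stood for a gene. Names came from RefSeq by accession for 26055 probes and by current symbol for 3195, and from the array file for 10179.

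Genes for which some group had both arrays well above background were fitted with limma 3.58.1 in R 4.3.3, in a model of 4 group means over 8 arrays (4 residual degrees of freedom), with Benjamini-Hochberg adjustment over 19538 genes and a threshold of 0.05. The comparisons were GFP+ against GFP- in each class, cluster against endothelial cells in each GFP state, and the difference between the GFP differences. Genes with all per-array values in the text were Efnb2, Ephb4, Unc5b and, in each comparison, up to 6 called genes in each direction with the largest differences among those above background on all arrays of the groups compared and changed the same way on both slides; the rest are given by group or difference, chosen with their values known. The members and gene lists were chosen with earlier results of these data known. The replicate number is the slide, per the barcodes in the scanner file names, and the slide pairs the samples. The differences between replicates correlated between groups with r from 0.139 to 0.359 over genes. A fit with the slide as a block was therefore made as well. The scripts were tested on simulated data. Mouse mm9 coordinates of probes are those of the array files; no mm9 annotation of exons was used here.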

Additional observations from a re-analysis of the deposited data

Results flagged for a closer look

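For 30 of the 61 guidance genes the GFP difference in cluster cells differed from that in endothelial cells in a test of the difference itself (limma, adjusted p under 0.05; log2 values, cluster minus endothelial). Over all tested genes 31.1% passed the same test, and the cause was not tested. Negative values belonged to the ephrin and Eph genes Epha4 (-0.95), Efna5 (-0.89), Efnb3 (-0.73) and Efnb2 (-0.40), and to the semaphorin genes Sema5b (-1.85), Sema5a (-0.995), Sema3g (-0.68), Sema3c (-0.52), Sema3a (-0.52) and Sema3f (-0.34). Of the semaphorin receptors, Plxnb1 (-0.89), Nrp2 (-0.87), Plxnc1 (-0.76), Nrp1 (-0.74), Plxna4 (-0.71), Plxna2 (-0.70) and Plxna3 (-0.70) were negative. The Slit, Robo, netrin and Unc5 genes were Ntn1 (-0.996), Unc5b (-0.82), Slit3 (-0.81), Unc5c (-0.70), Slit1 (-0.60), Robo1 (-0.57), Slit2 (-0.56), Unc5a (-0.48) and Robo2 (-0.43). The positive values were those of Ephb6 (0.38), Sema4b (0.77), Sema4d (0.96) and Efna3 (1.29). Neither array of GFP+ cluster cells had Ntn1 or Sema5b well above background, so those 2 values are no measured sizes there. Where these genes had a second fitted probe, that probe was called for Nrp2 (-0.89). It was not called for Sema3g (-0.63), Unc5c (-0.35), Plxnc1 (-0.26), Robo2 (0.11), Efnb2 (0.15) and Ephb6 (-0.39).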

How the results depend on the processing

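The counts of called guidance genes, 39 and 31 for GFP in cluster and endothelial cells, 41 and 18 between the GFP+ and between the GFP- classes and 30 for the difference of differences, stayed within 1.5 times under quantile normalization (39, 29, 43, 15 and 33), the authors' table (39, 28, 43, 15 and 32), the filter on all 8 arrays (37, 28, 40, 20 and 30) and the mean of probes (33, 28, 34, 16 and 23). The replicate block (slide) gave 42, 30, 42, 22 and 32; it ended the endothelial call of Ntn1 and added 10 calls, those named with a blocked p in the report and, in other comparisons, calls of Sema6a, Epha1, Sema3b, Sema3d and Efna4. Without a filter on dim probes 9 genes were called between the GFP- classes and 18 for the difference of differences. Leaving out each array in turn gave 31 to 39, 23 to 34, 37 to 42, 8 to 15 and 23 to 28; no called direction turned under these. Normexp gave 0, 0, 2, 0 and 0 calls in the same order. On replicate 2 of GFP- endothelial cells 2 spots lay below their local background, the lowest at -32157. Replicate 1 of GFP+ and of GFP- endothelial cells had 1 such spot each, at -2.37 and -9.73. An alternative chosen after seeing the data, without such spots, gave 33, 27, 37, 11 and 20. Under the planned normexp the log2 difference turned sign for GFP in endothelial cells in Plxna3 -0.40, Ephb4 0.035, Epha1 -0.75, Epha4 -0.38, Sema4d -0.22, Sema3d -0.91 and Sema5b -0.73; between the GFP- classes in Plxna3 -0.43, Unc5c -0.45, Epha2 0.022, Slit1 -0.35 and Sema5a -0.21; and for the difference of differences in Plxnb1 0.26, Slit3 0.061, Plxna3 0.41, Unc5c 0.41, Epha4 0.096, Robo2 0.54, Slit1 0.28, Ntn1 0.51, Sema3c 0.47, Sema3a 0.45 and Sema5b 0.48. With the mean of all probes it turned for Sema3a 0.060 between the GFP+ classes and, for the difference of differences, in Sema3c 0.085, Ephb6 -0.0043 and Sema3a 0.075. Quantile normalization and the authors' table turned the uncalled endothelial GFP differences of Nrp2 and Plxnd1 into called rises (0.28 and 0.28 in both). Beyond what these constructions show, the cause was not tested. Within each slide no called difference changed sign. Dim genes limit the rest: Epha8, Ntn1, Robo3 and Sema5b were above background on neither array of GFP+ cluster cells, and the arrays number 2 in each group.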
